A study of Homo sapiens with 4 samples.

Results

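The E2F transcription factor family was examined in HepG2 cells, a human hepatocellular carcinoma (HCC) line, by taking the genes named E2F1 to E2F8 and the genes of their dimerization partners, TFDP1 and TFDP2. All 10 names were found among the 58302 genes listed for each library, and the members were chosen by name and not by their values. The cells, labelled as wild type and kept in MEM with fetal bovine serum, received either the solvent DMSO or the pineal hormone melatonin at 1 mM. The 4 groups were DMSO for 24 h, melatonin for 24 h, DMSO for 48 h and melatonin for 48 h, and each group was 1 mRNA-seq library. Without replicates the spread between cultures is unknown, so no p-value was computed, and every interval below is a 95% interval for counting error alone. The comparisons asked how the family's transcripts differed between melatonin and DMSO at each time, and whether activator E2Fs differed from repressor E2Fs.

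E2F proteins link the cell cycle machinery to transcription. E2F1, E2F2 and E2F3 are the activators, which drive genes for DNA replication and nucleotide synthesis at entry into S phase once cyclin-dependent kinases have released them from the retinoblastoma protein. E2F4 and E2F5 act mainly as repressors together with the pocket proteins RBL1 and RBL2, E2F6 represses through polycomb complexes, and E2F7 and E2F8 are atypical repressors that bind DNA without a DP partner and are themselves E2F target genes. E2F1 to E2F6 bind DNA as heterodimers with TFDP1 or TFDP2. In liver, E2F programmes are mostly silent in resting hepatocytes and active in regenerating tissue and in proliferating tumour cells.

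Expression was given as FPKM (fragment counts divided by the length of the gene in kb and by a library size), so levels of different genes are compared here per length. The listed length of a gene was the same in every library, whichever isoforms were expressed. Orders, sums and ratios across genes therefore depend on these lengths, and their intervals do not cover that. The whole reads behind each value could be recovered, and the reads on genes numbered 21616676 to 23086025 per library. The share of these reads on mitochondrial genes was 20.0% and 16.6% in the DMSO and melatonin libraries at 24 h, and 9.77% and 11.9% at 48 h. The tissue label was checked against 7 hepatocyte genes (ALB, AFP, APOA1, APOB, TTR, HNF4A and SERPINA1), of which 7 had an FPKM of at least 1 in each library. Of 8 markers of blood, endothelial and stromal cells (PTPRC, CD3E, CD68, PECAM1, VWF, DCN, LUM and HBB), 0 reached an FPKM of 1 in any library, and their summed FPKM was 0.474 to 1.11. Changes are given as log2((FPKM + 1)/(FPKM + 1)), which understates the change of low genes, or as the plain ratio of FPKM with its interval. Genes reaching an FPKM of 1 in at least one of the compared libraries were tested, and a gene was called at a change of at least 2-fold on the first scale.

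The promoters of the members were searched for exact matches to the E2F sequence element. The windows of E2F1, E2F2, E2F3, E2F4 and E2F7 are printed because the results below turn on these genes. They are the 250 bases before the RefSeq start on GRCh38.p14, read 5′ to 3′ on the gene's strand, with E2F matches in capitals. The windows lay at chr20:33686386-33686635 (E2F1, minus strand), chr1:23531234-23531483 (E2F2, minus strand), chr6:20401629-20401878 (E2F3, plus strand, the first of 2 windows), chr16:67191905-67192154 (E2F4, plus strand) and chr12:77065570-77065819 (E2F7, minus strand).
E2F1: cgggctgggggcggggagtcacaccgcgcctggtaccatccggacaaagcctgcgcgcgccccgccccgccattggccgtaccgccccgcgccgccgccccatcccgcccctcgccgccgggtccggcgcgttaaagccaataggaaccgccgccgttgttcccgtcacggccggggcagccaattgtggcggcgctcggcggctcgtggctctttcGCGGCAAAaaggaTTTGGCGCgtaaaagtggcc
E2F2: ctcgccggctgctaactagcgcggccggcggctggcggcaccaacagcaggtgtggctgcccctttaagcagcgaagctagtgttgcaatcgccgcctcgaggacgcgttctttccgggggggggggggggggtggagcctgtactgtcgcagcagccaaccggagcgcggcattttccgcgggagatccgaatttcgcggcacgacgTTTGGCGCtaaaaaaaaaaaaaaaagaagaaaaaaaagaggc
E2F3: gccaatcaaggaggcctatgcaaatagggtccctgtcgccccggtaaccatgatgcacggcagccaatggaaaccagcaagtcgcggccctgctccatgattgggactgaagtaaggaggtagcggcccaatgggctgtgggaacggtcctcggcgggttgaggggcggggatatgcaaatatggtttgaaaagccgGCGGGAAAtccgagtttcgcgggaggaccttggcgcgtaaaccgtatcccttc
E2F4: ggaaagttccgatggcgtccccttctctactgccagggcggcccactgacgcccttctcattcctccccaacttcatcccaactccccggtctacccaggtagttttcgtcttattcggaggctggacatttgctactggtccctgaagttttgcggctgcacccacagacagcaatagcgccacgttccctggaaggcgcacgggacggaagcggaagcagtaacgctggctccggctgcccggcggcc
E2F7: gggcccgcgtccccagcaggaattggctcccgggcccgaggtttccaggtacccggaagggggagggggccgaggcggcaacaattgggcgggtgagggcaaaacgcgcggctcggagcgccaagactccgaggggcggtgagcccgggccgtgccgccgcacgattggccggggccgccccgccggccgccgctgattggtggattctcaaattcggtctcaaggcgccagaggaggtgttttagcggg

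The letters searched on both strands were TTTCCCGC, TTTCGCGC, TTTGCCGC and TTTGGCGC for the E2F element, and TTTGAA for the cell cycle homology region (CHR) that the MuvB complex binds. Windows were found for 8 of the 10 members, 11 windows in all, and not for E2F5 and E2F8. An E2F match was present in 4 of the 11 windows, belonging to E2F1, E2F2, E2F3 and TFDP1, while 2.79% of all 35116 promoter windows held one. E2F1 had 2 matches, one at positions -33 to -26 and one at -20 to -13 relative to the start. E2F2 had 1 match at -42 to -35, E2F3 had 1 at -53 to -46, and TFDP1 had 1 at -120 to -113. The 3 activators thus each held an E2F match, E2F3 in the first of its windows only. The windows of E2F4, E2F6, E2F7 and TFDP2 held no E2F match. TTTGAA occurred in the E2F3 window at -65 to -60 and in 2 of the 3 windows of TFDP2, against 13.3% of all windows, and none of the matches overlapped another. A match is a stretch of letters and not a measured binding site. A gene without a match may still hold the element in other letters or outside the window.

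E2F1 (ENSG00000101412, chr20:33675683-33686404), the activator best known for driving S phase entry and, at high activity, apoptosis, had the largest ratio of highest to lowest library of the 10 members. Its FPKM was 31.5 (29.9 to 33.2) with DMSO for 24 h, 50.2 (48.3 to 52.2) with melatonin for 24 h, 17.2 (16.1 to 18.3) with DMSO for 48 h and 70.0 (67.8 to 72.2) with melatonin for 48 h. The melatonin libraries were the upper ones at both times, and the intervals of the 4 libraries did not overlap. The ratio of melatonin over DMSO was 1.59 (1.49 to 1.70) at 24 h and 4.07 (3.79 to 4.37) at 48 h. At 48 h, E2F1 had the 18th largest log2 change of the 13805 genes tested, and 99.9% of these genes lay below it. The DMSO library at 48 h entered that ratio with the lowest E2F1 level of the series, and against the DMSO library at 24 h the melatonin library at 48 h was higher by 2.22-fold (2.09 to 2.36). Here and below, a comparison of melatonin at 48 h with DMSO at 24 h changes treatment and time together.

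E2F2 (ENSG00000007968, chr1:23506430-23531220), an activator with known roles in blood cell development, was present at a much lower level. Its FPKM was 2.55 and 3.40 in the DMSO and melatonin libraries at 24 h, and 1.04 and 2.61 at 48 h. The melatonin library was above DMSO by 1.34-fold (1.14 to 1.57) at 24 h and by 2.52-fold (2.04 to 3.12) at 48 h. The low value was that of DMSO at 48 h, which rested on 124 reads. Against DMSO at 24 h, which differs in time as well as treatment, the ratio of melatonin at 48 h was 1.02 (0.866 to 1.21). The ratio of 2.52 thus holds only against the DMSO library of the same time.

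E2F3 (ENSG00000112242, chr6:20401906-20493715), the activator with a long and a short isoform that gene totals cannot separate, showed no such pattern. Its FPKM was 9.64 and 8.77 in the DMSO and melatonin libraries at 24 h, and 8.21 and 8.25 at 48 h. The ratio of melatonin over DMSO was 0.910 (0.830 to 0.998) at 24 h and 1.00 (0.917 to 1.10) at 48 h. On TPM, a rescaling to a common sum, the log2 change at 24 h turned from -0.12 to 0.04 and that at 48 h from 0.01 to -0.05. TPM also moved the median of all genes tested at 24 h from 0.02 to 0.185. On TPM centred on the median of the genes tested on that scale, the changes of E2F3 were -0.13 at 24 h and 0.02 at 48 h.

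Among the repressors, E2F4 (ENSG00000205250, chr16:67192169-67198918), the main E2F of quiescent cells and a subunit of the DREAM repressor complex, was the most abundant. Its FPKM was 20.4 and 18.6 in the DMSO and melatonin libraries at 24 h, and 25.0 and 18.5 at 48 h. The other libraries lay close together, between 18.5 and 20.4, and DMSO at 48 h stood above them. The ratio of melatonin over DMSO was 0.916 (0.849 to 0.989) at 24 h and 0.739 (0.690 to 0.791) at 48 h. The first of these turned to a log2 change of 0.05 on TPM, and was -0.12 on centred TPM. Against DMSO at 24 h, the ratio of melatonin at 48 h was 0.908 (0.843 to 0.979).

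E2F5 (ENSG00000133740, chr8:85177225-85217158), the other pocket protein partner, was low. Its FPKM was 2.16 and 1.46 in the DMSO and melatonin libraries at 24 h, and 2.81 and 1.64 at 48 h. Both melatonin libraries were below both DMSO libraries, with ratios of 0.674 (0.551 to 0.823) at 24 h and 0.585 (0.492 to 0.694) at 48 h. The gene overlaps C8orf59 on the opposite strand, which had 219, 169, 266 and 228 reads in the same order of libraries, in all 89.0% of the number counted for E2F5. Whether the counting used strand is not stated, so reads of these genes may not be separated and the values of E2F5 are uncertain.

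E2F6 (ENSG00000169016, chr2:11444375-11466177), the polycomb-linked repressor, had an FPKM of 10.0 and 11.1 in the DMSO and melatonin libraries at 24 h, and 12.2 and 11.2 at 48 h. The ratio of melatonin over DMSO was 1.11 (1.01 to 1.22) at 24 h and 0.919 (0.843 to 1.00) at 48 h. All 4 libraries lay within a narrow range, and the order of melatonin and DMSO was opposite at the 2 times.

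The atypical repressors E2F7 (ENSG00000165891, chr12:77021247-77065580) and E2F8 (ENSG00000129173, chr11:19224063-19241620), which restrain E2F1 and its targets late in S phase, were the lowest members in the DMSO library at 48 h. For E2F7 the FPKM was 1.77 and 2.68 in the DMSO and melatonin libraries at 24 h, and 0.818 and 2.17 at 48 h. For E2F8 it was 1.45 and 2.25 at 24 h, and 0.771 and 1.77 at 48 h. Each melatonin library was above the DMSO library of its time, and both genes were lowest with DMSO at 48 h, the same order of libraries as E2F2. The ratio of melatonin over DMSO for E2F7 was 1.51 (1.27 to 1.81) at 24 h and 2.66 (2.13 to 3.33) at 48 h. For E2F8 it was 1.56 (1.22 to 1.99) at 24 h and 2.30 (1.73 to 3.09) at 48 h. Set against DMSO at 24 h, melatonin at 48 h gave 1.23 (1.02 to 1.47) for E2F7 and 1.23 (0.956 to 1.58) for E2F8, and the second of these intervals includes 1. With 70 reads in the DMSO library at 48 h, E2F8 had the fewest reads of any member.

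The DP partners differed little between melatonin and DMSO. TFDP1 (ENSG00000198176, chr13:113584721-113641470), the main partner in most tissues, had an FPKM of 25.2 and 24.6 at 24 h and of 20.0 and 20.4 at 48 h in the DMSO and melatonin libraries. The corresponding values of TFDP2 (ENSG00000114126, chr3:141944428-142149544) were 6.71 and 6.41 at 24 h, and 5.06 and 5.28 at 48 h. The ratios of melatonin over DMSO for TFDP1 were 0.980 (0.918 to 1.05) and 1.02 (0.951 to 1.09), and those for TFDP2 were 0.955 (0.889 to 1.03) and 1.04 (0.966 to 1.13). All of these intervals include 1, and their farthest bounds are 0.889 and 1.13. TFDP1 exceeded TFDP2 by 3.75-fold to 3.95-fold in the 4 libraries.

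**Figure D1:**
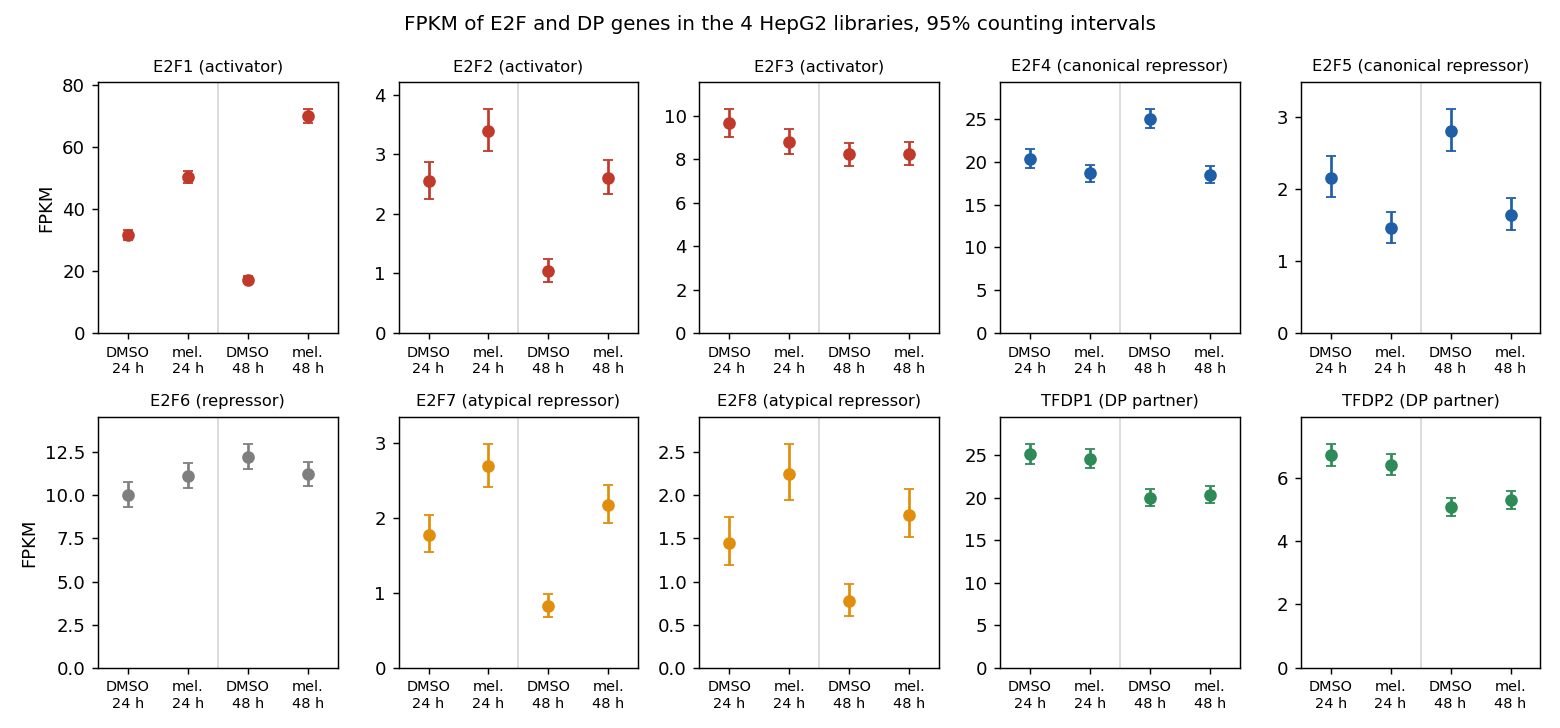
FPKM (vertical axes, from 0) of the 10 genes in each of the 4 libraries (horizontal axes), as points with 95% counting intervals and colours by class. E2F1, E2F2, E2F7 and E2F8 are lowest with DMSO at 48 h, E2F4, E2F5 and E2F6 are highest there, and E2F1 is highest, at 70.0, with melatonin at 48 h.

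The order of the members was headed by E2F1 in 3 of the 4 libraries. In the DMSO library at 24 h it was followed by TFDP1, E2F4, E2F6, E2F3, TFDP2, E2F2, E2F5, E2F7 and E2F8, where the neighbours E2F6 and E2F3, E2F2 and E2F5, and E2F7 and E2F8 did not differ beyond counting error. The melatonin library at 24 h kept this order except that E2F5 was last, and only E2F7 and E2F8 were not separated. In the melatonin library at 48 h the order was that of melatonin at 24 h, and only E2F8 and E2F5 were not separated. In the DMSO library at 48 h, E2F4 came first, ahead of TFDP1 and E2F1, and E2F5 was above E2F2, E2F7 and E2F8, the last of which were not separated from each other as neighbours. E2F1 thus went from the third member with DMSO at 48 h to the first, 3.43-fold (3.24 to 3.64) above TFDP1, with melatonin at 48 h.

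Few reads were counted on copies of the members. How reads that match several places were handled is not stated, so reads shared between copies and members cannot be told apart here. The 7 processed pseudogenes of E2F3, E2F4 and E2F6 had at most 4 reads in a library, and TFDP3, a paralog of the DP genes on the X chromosome, had 0 reads in each.

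At 24 h, 0 of the 10 members were called at 2-fold in either direction, where 1.42% of the 13582 genes tested were called higher and 2.93% lower. At 1.5-fold, E2F1 alone was higher and 0 members were lower, against 4.02% higher and 7.53% lower of all genes. At 48 h, 1 member, E2F1, rose by at least 2-fold and 0 fell, against 2.39% higher and 3.32% lower of the 13805 genes tested. At 1.5-fold, 4 members were higher at 48 h (E2F1, E2F2, E2F7 and E2F8) and 0 were lower, against 8.62% and 10.0% of all genes. With DMSO at 48 h, E2F7 and E2F8 had an FPKM below 1, at 0.818 and 0.771. They were tested only because of their melatonin value, so they could be called only as higher. The median log2 change of the members was 0.05 at 24 h and 0.04 at 48 h, beside 0.02 and -0.02 over all genes tested, so the family's median was close to that of all genes while its members spread between -0.53 and 1.96 at 48 h. Because E2F2, E2F7 and E2F8 lie near an FPKM of 1, the added 1 lowers their change. With 0.1 added instead, 4 members were called higher by 2-fold at 48 h, where 5.48% of all genes tested were.

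**Figure D2:**
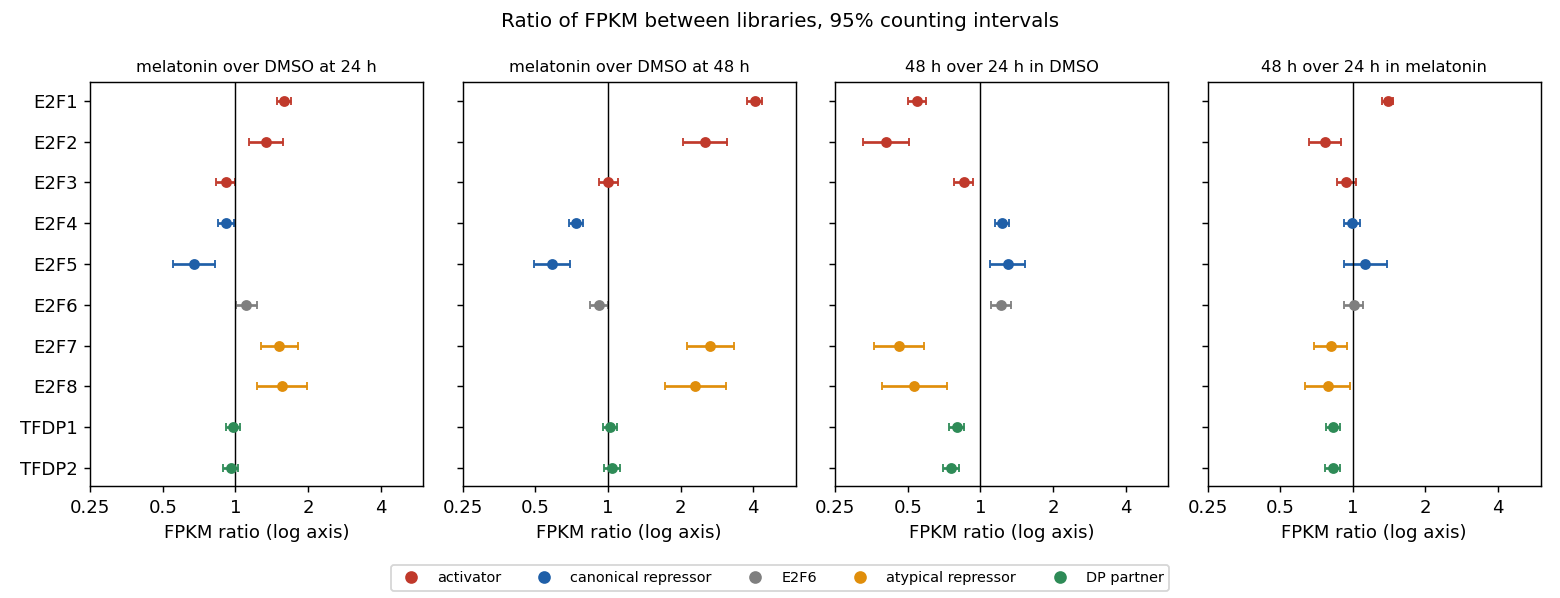
Ratio of FPKM (horizontal axes, log scale) between the libraries named above each panel, for the 10 genes (rows), with 95% counting intervals and the line at a ratio of 1. At 48 h E2F1 lies at 4.07 and E2F2, E2F7 and E2F8 lie between 2.30 and 2.66, while E2F4 and E2F5 lie below 1.

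The activator class and the repressor class were compared by their mean log2 changes. At 24 h the mean was 0.28 for E2F1, E2F2 and E2F3 and 0.09 for E2F4 to E2F8, a difference of 0.19 (0.08 to 0.29). At 48 h the means were 0.93 and 0.08, a difference of 0.85 (0.75 to 0.96). Neither class moved as a block. At 48 h the activators ranged from 0.01 for E2F3 to 1.96 for E2F1, and the repressors from -0.53 for E2F5 to 0.80 for E2F7. The atypical repressors had a mean of 0.41 at 24 h and 0.73 at 48 h, so the activators differed from them by -0.13 (-0.28 to 0.03) and 0.21 (0.05 to 0.36). The difference from E2F4, E2F5 and E2F6 was 0.40 (0.29 to 0.51) at 24 h and 1.28 (1.18 to 1.39) at 48 h. At 48 h E2F1, E2F2, E2F7 and E2F8 had the highest changes of the 8 E2F genes and E2F4 and E2F5 the lowest, with E2F3 and E2F6 between them. At 24 h E2F3 was level with E2F4, at -0.12 each.

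The class difference changed with the members and, at 48 h, with the DMSO library used. Without E2F1 it was 0.00 at 24 h, with a value just below 0, and 0.34 at 48 h. Without E2F5, whose values are uncertain, the difference at 24 h was 0.07, and without E2F3 it was 0.39. With the DMSO library of 24 h in place of that of 48 h, which adds the difference in time, the difference at 48 h was 0.29.

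On the scale of summed levels, the activators together had an FPKM of 43.7 and 62.4 in the DMSO and melatonin libraries at 24 h, and of 26.5 and 80.8 at 48 h. The repressors together had 35.8 and 36.2 at 24 h, and 41.6 and 35.3 at 48 h. The activator sum moved widely and the repressor sum stayed within a narrow range. At 24 h their ratio was 1.22 (1.16 to 1.29) in the DMSO library and 1.73 (1.64 to 1.81) in the melatonin library. At 48 h it was 0.635 (0.600 to 0.673) and 2.29 (2.19 to 2.40). By FPKM, repressor transcripts exceeded activator transcripts only in the DMSO library at 48 h. The activator sum was mostly E2F1, since E2F2 and E2F3 together had an FPKM of 9.25 to 12.2. E2F1 made up 39.7% and 51.0% of the E2F1 to E2F8 sum in the DMSO and melatonin libraries at 24 h, and 25.3% and 60.3% at 48 h. The ratio of E2F1 to E2F4, the leading member of each class, was 1.55 and 2.69 in the DMSO and melatonin libraries at 24 h, and 0.688 and 3.79 at 48 h. The first of these rested on 1448 reads of E2F1 and 1338 of E2F4, and so largely on their listed lengths of 2503 and 3582 bp.

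**Figure D3:**
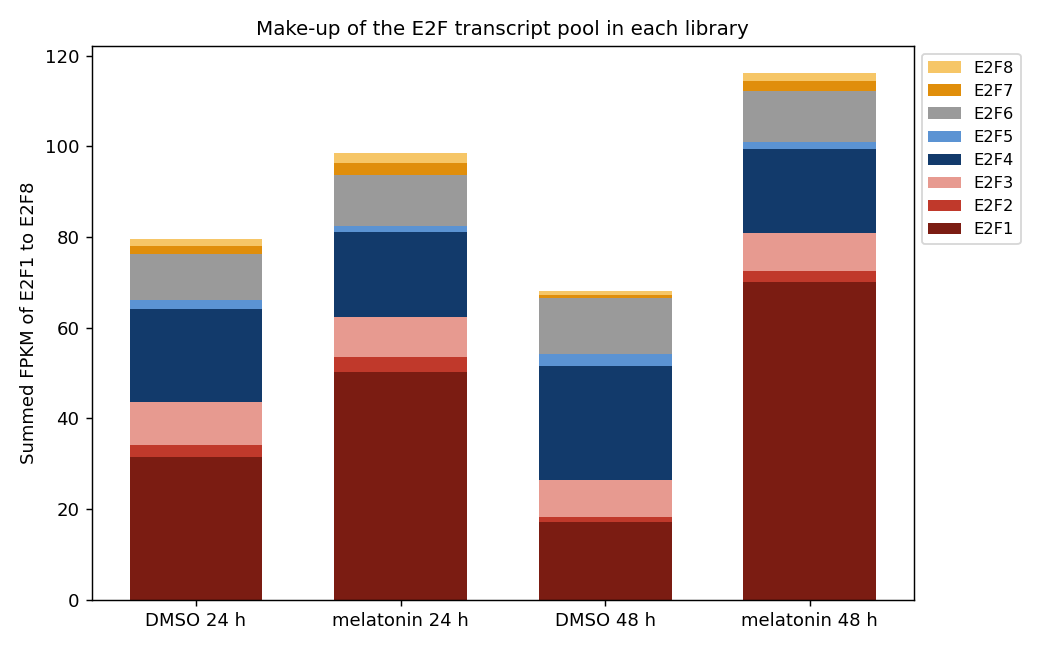
Summed FPKM of E2F1 to E2F8 (vertical axis, from 0) in each library (bars), divided by gene. At 48 h the totals are 68.1 (DMSO) and 116.1 (melatonin), and the dark red part, E2F1, takes up 25.3% and 60.3% of these bars.

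The DP genes did not follow the E2F sum. The summed FPKM of TFDP1 and TFDP2 was 31.9 and 31.1 at 24 h and 25.1 and 25.7 at 48 h in the DMSO and melatonin libraries. The E2F1 to E2F8 sum was 79.5 and 98.5 at 24 h, and 68.1 and 116.1 at 48 h. This sum includes E2F7 and E2F8, which bind DNA without a DP partner and together had an FPKM of 1.59 to 4.93. The E2F to DP ratio of transcripts was therefore highest, at 4.53, with melatonin at 48 h, and was 2.49 to 3.17 in the other libraries.

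The time comparisons use the same libraries as the treatment comparisons and are not independent of them. In DMSO, from 24 h to 48 h, E2F1 had a ratio of 0.546 (0.502 to 0.593), E2F2 of 0.407 (0.326 to 0.506), E2F7 of 0.461 (0.363 to 0.583) and E2F8 of 0.533 (0.389 to 0.725). The opposite order held for E2F4 at 1.23 (1.15 to 1.32), E2F5 at 1.30 (1.10 to 1.54) and E2F6 at 1.22 (1.11 to 1.34). At 2-fold 0 members were called in either direction, against 3.5% higher and 4.24% lower of the 13854 genes tested. At 1.5-fold, 3 members were lower (E2F1, E2F2 and E2F7) and 0 were higher, against 12.6% lower and 11.2% higher of all genes. E2F7 and E2F8 were tested only because of their DMSO value at 24 h, so they could be called only as lower. TFDP1 and TFDP2 had ratios of 0.796 and 0.755, but their log2 changes of -0.32 and -0.35 turned to 0.17 and 0.09 on TPM, as did that of E2F3, from -0.21 to 0.26. TPM shifted the median log2 change of all genes in this comparison from 0.00 to 0.47, and moved the share of higher genes among those called at 2-fold, over the same genes, from 45.2% to 84.2%.

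In melatonin, from 24 h to 48 h, the members differed less. E2F1 had a ratio of 1.39 (1.33 to 1.47), the only one with an interval above 1. E2F2, E2F7 and E2F8 had ratios of 0.768, 0.810 and 0.788, and TFDP1 and TFDP2 of 0.827 and 0.824, with intervals below 1. At 2-fold 0 members were called, against 2.45% higher and 1.71% lower of the 13489 genes tested. Here TPM shifted the median of all genes from -0.04 to 0.21, moved the share of higher genes among those called from 58.9% to 76.5% and turned TFDP1 from -0.26 to 0.00 on the log2 scale. The activator minus repressor difference in mean log2 change was -0.56 (-0.67 to -0.45) over time in DMSO and 0.10 (0.00 to 0.20) over time in melatonin.

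The genes whose profile over the 4 libraries was most like that of E2F1, by the distance between centred log2(FPKM + 1) values among the 5792 genes that reached an FPKM of 5 in every library, were CEMIP, TMEM256, DHRS2, AL365181.3 and MACROD1, at distances of 0.27 to 0.52. CEMIP had an FPKM of 21.3 and 30.0 in the DMSO and melatonin libraries at 24 h, and of 12.4 and 40.1 at 48 h. None of the 5 is on the lists of E2F targets below. For E2F4 the nearest genes were NOP2, ZNF512B, WDR33, ZNF317 and PTAR1, at distances of 0.02 to 0.04. NOP2 had an FPKM of 17.0, 15.6, 20.7 and 15.6 in the same order.

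Upstream of the E2Fs stand the pocket proteins, the cyclins with their kinases, and the kinase inhibitors. RBL1, a pocket protein that is itself an E2F target, had an FPKM of 7.24 and 8.94 in the DMSO and melatonin libraries at 24 h, and of 3.41 and 6.63 at 48 h. It was the 1 of 3 pocket proteins above 1.5-fold at 48 h, with a log2 change of 0.79, against 0.36 for RB1 and 0.05 for RBL2. Of all genes tested at 48 h, 8.62% were higher by at least 1.5-fold and 2.39% by at least 2-fold. Of the 8 cyclin and kinase genes tested at 48 h, 1 rose by 2-fold. This was CCNE1, the cyclin that fires S phase entry with CDK2, with an FPKM of 6.71 and 9.84 at 24 h, and of 4.36 and 10.7 at 48 h. CDC25A, a phosphatase that activates CDK2, had a log2 change of 0.75 at 48 h, whereas CCND1 and CDK6, which start the inactivation of the retinoblastoma protein, had changes of -0.18 each. Against DMSO at 24 h, 1 of the 8 cyclin and kinase genes was above 0 with melatonin at 48 h and 7 were below. Of the 3 pocket proteins, 1 was above 0 in that comparison and 2 were below.

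Among the kinase inhibitors, 1 of 6 tested fell by 2-fold at 48 h and 0 rose, against 3.32% lower and 2.39% higher of all genes tested. On TPM, 1 of the 6 fell and 1 rose. Over the same set of all genes, the number called went from 459 to 836 lower and from 330 to 542 higher on TPM. CDKN1A, the p53-induced inhibitor of CDK2, had an FPKM of 25.3 and 16.2 in the DMSO and melatonin libraries at 24 h, and of 60.3 and 26.6 at 48 h. It was lower with melatonin at both times and highest with DMSO at 48 h, the library in which E2F1 was lowest. CDKN2C, an inhibitor of CDK4 and CDK6 known as an E2F target, had a log2 change of 0.90 at 48 h, CDKN2B of 0.40 and CDKN1B of -0.28. In the DMSO and melatonin libraries CDKN2C had an FPKM of 6.93 and 8.08 at 24 h, and of 2.075 and 4.72 at 48 h. Against DMSO at 24 h, 4 of the 6 inhibitors were above 0 with melatonin at 48 h and 2 below.

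The MuvB genes, partners of E2F4 in repression and of MYBL2 and FOXM1 in activation, held 0 of 6 tested past 2-fold and 2 above 1.5-fold at 48 h. These were MYBL2 and FOXM1, drivers of late cell cycle genes. Of all genes tested at 48 h, 8.62% were above 1.5-fold. MYBL2 had an FPKM of 68.7 and 71.2 in the DMSO and melatonin libraries at 24 h, and of 20.3 and 36.8 at 48 h. FOXM1 had 19.3 and 21.8 at 24 h, and 7.58 and 12.5 at 48 h. For both genes the 2 libraries at 48 h were below the 2 at 24 h, unlike for E2F1. Of the 4 core subunits tested, 3 were above 0 at 48 h, with log2 changes of 0.51 for LIN54, 0.29 for LIN52 and 0.20 for LIN9, and RBBP4 had -0.34. LIN52 and LIN54 were added after their values were seen. Against DMSO at 24 h, 1 of the 6 genes of this list was above 0 with melatonin at 48 h and 5 were below.

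Downstream, the 23 replication and nucleotide genes known as E2F targets gave different pictures at the 2 times. At 24 h, 0 of 23 were called in either direction, 8 were above 0 and 15 below. Their median log2 change was -0.03, beside 0.02 for all genes tested. On TPM it was 0.14 with 18 above 0, beside 0.185 for the same set of all genes. At 48 h, 2 of 23 rose by 2-fold, 17 were above 1.5-fold, all 23 were above 0, and the median was 0.72, beside -0.02 for all genes tested. Of all genes tested, 2.39% rose by 2-fold and 8.62% were above 1.5-fold. On TPM, 5 of the 23 rose by 2-fold and 15 were above 1.5-fold. Over the same genes as on FPKM, the number called higher by 2-fold went from 330 to 542 on TPM. TK1, thymidine kinase, had an FPKM of 58.3 and 54.6 in the DMSO and melatonin libraries at 24 h, and of 16.5 and 37.4 at 48 h. CDC6, which loads the replicative helicase, had 12.5 and 14.9 at 24 h, and 4.23 and 10.1 at 48 h. SLBP, which binds histone mRNA and had the lowest change of the list, had a log2 change of 0.17 at 48 h.

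These differences at 48 h stood against a low DMSO library. From 24 h to 48 h in DMSO, 13 of the 23 replication genes fell by 2-fold, against 4.24% of all genes tested. Their median log2 change was -1.15, or -0.85 with 8 called on TPM. With melatonin at 48 h set against DMSO at 24 h, which changes time as well as treatment, 2 of the 23 were above 0 and 21 below, with a median of -0.48. E2F1 in the same comparison had a log2 change of 1.13. The E2F1 transcript was thus higher with melatonin at 48 h than in either DMSO library, while 21 of the 23 target genes lay above their level in DMSO at 48 h and below that in DMSO at 24 h. RNA of whole cultures cannot tell fewer cells in a cell cycle phase from less RNA per cell.

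Of 16 other cell cycle targets, 1 rose by 2-fold at 48 h, 8 were above 1.5-fold and 15 were above 0, with a median of 0.52. The shares of all genes tested were 2.39% at 2-fold and 8.62% at 1.5-fold. At 24 h, 0 of the 16 were called and the median was 0.15. The gene that rose was BRCA1, a DNA repair gene, with an FPKM of 6.22 and 8.09 in the DMSO and melatonin libraries at 24 h, and of 1.70 and 4.52 at 48 h. EZH2, a polycomb methyltransferase, had a log2 change of 0.08 at 48 h, and WEE1, a kinase that restrains CDK1, of -0.09. Against DMSO at 24 h, 3 of the 16 were above 0 with melatonin at 48 h.

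The apoptosis genes known as targets of E2F1 were near the background at 48 h. There, 0 of 8 tested rose by 2-fold and 1 fell, against 2.39% and 3.32% of all genes tested. Their median log2 change was -0.02, that of all genes. BBC3, a p53-induced killer of the BCL2 family, had an FPKM of 6.05 and 6.76 in the DMSO and melatonin libraries at 24 h, and of 19.1 and 8.44 at 48 h. Its one high value was in the DMSO library at 48 h. CASP8, an initiator caspase, had a log2 change of 0.38 at 48 h.

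Among the partners of the repressors and the cofactors, 0 genes were called at 2-fold in either treatment comparison. Of all genes tested, 1.42% were called higher and 2.93% lower at 24 h, and 2.39% and 3.32% at 48 h. Of 10 genes of the E2F6 polycomb complex and its partners the median log2 change was 0.19 at 24 h and 0.00 at 48 h, beside 0.02 and -0.02 for all genes. At 48 h, PCGF6 had a log2 change of 0.51, RNF2 of 0.21, WDR5 of -0.39 and CBX3 of -0.41. The germline genes that E2F6 helps to silence stayed low: SLC25A31 and MAEL had 0 reads in each library, which allows up to 3 reads, SMC1B had an FPKM of 0.117 to 0.204, and STAG3 had 0.844 and 0.707 at 24 h, and 2.28 and 1.17 at 48 h. Of 3 ubiquitin ligase factors that remove E2F proteins, SKP2 had a log2 change of 0.47 at 48 h, CCNF of 0.34, the list's median, and FZR1 of -0.22. Against DMSO at 24 h, all 3 were below 0 with melatonin at 48 h. All 5 coactivator genes tested were below 0 at 48 h, with a median of -0.25 and 0 called. EP300 had -0.37, CREBBP -0.36, HCFC1 -0.23 and KAT2A -0.22.

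**Figure D4:**
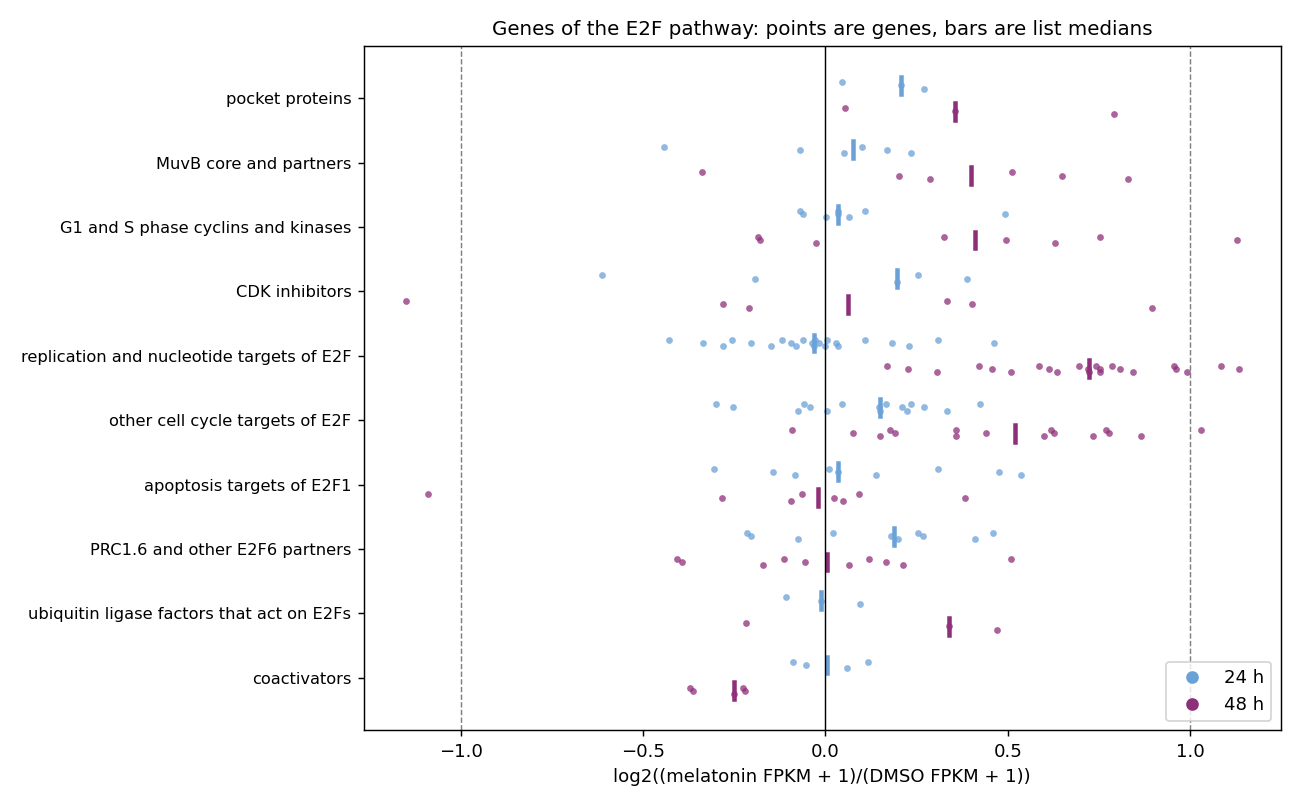
Log2((melatonin FPKM + 1)/(DMSO FPKM + 1)) (horizontal axis) of the tested genes of 10 lists around the E2F family (rows), at 24 h (blue) and 48 h (purple), with bars at the list medians and dashed lines at a 2-fold change. At 48 h all 23 replication genes lie right of 0 around a median of 0.72, while at 24 h their median is -0.03.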

How the data were processed

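Messenger RNA of HepG2 cells was sequenced in 1 library per treatment and time. By the methods of the study, MapSplice 2.0.1.6 aligned the reads to hg38 and the authors used Cufflinks for expression, whereas the submitters' processing notes list Bowtie2 2.0.6, TopHat2 2.0.9, Cufflinks 2.1.1 and Cuffdiff 2.1.1, and which of these made the files is not settled here. The authors deposited FPKM per Ensembl gene. The deposited files also hold other gene columns, of which the gene length in bp was used, with the files' own coordinates. Whether counting used strand is not stated.

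FPKM times gene length was a whole multiple of 1 step per library (100% of values above 0, tolerance 0.01 reads), which gave reads per gene. A gene of 1 kb with 3 reads has an FPKM of 0.135 to 0.163. The library sizes implied by FPKM were 18357838 to 22205042 reads, less than the reads on genes, and how they were set is not stated. Levels have exact Poisson intervals, ratios of libraries exact conditional binomial (Clopper-Pearson) intervals, and class means and ratios of sums normal intervals from the same read counts. PCR reads without molecular identifiers are not independent molecules, so all intervals cover counting error only. Changes used a pseudocount of 1, a minimum FPKM of 1 in either library and calls at 2-fold, with all genes as background. With 1 library per condition no test was made.

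The members, gene lists and alternatives were chosen with earlier results of these data known. Named were all members, the 2 highest and 2 lowest genes of each list by the 48 h change (all genes of lists of 4 or fewer), and the 5 genes most like E2F1 and E2F4. Some genes that this rule names are not reported here. Alternatives were a pseudocount of 0.1, minimum FPKM settings, 1.5-fold calls, centring, TPM, other library sizes, class medians, parts of the repressor class and leaving out each E2F. TPM with centring and the DMSO library of 24 h as the control for 48 h were chosen after seeing the data. Promoters came from RefSeq (GRCh38.p14). A search of the members' proteins was not run. Scripts were tested on simulated data and used Python 3.11.15, numpy 2.4.6, pandas 2.3.3, scipy 1.17.1 and matplotlib 3.10.9.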

Additional observations from a re-analysis of the deposited data

Results flagged for a closer look

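For 6 of the 10 genes the ratio of melatonin over DMSO differed between 48 h and 24 h beyond counting error. The same count was not made over all genes, so 6 of 10 has no background share to be read against. The ratio at 48 h divided by that at 24 h was 2.56 (2.32 to 2.81) for E2F1, 1.89 (1.45 to 2.45) for E2F2, 1.76 (1.33 to 2.31) for E2F7 and 1.48 (1.03 to 2.13) for E2F8. It was 0.807 (0.729 to 0.893) for E2F4 and 0.828 (0.728 to 0.942) for E2F6. For E2F3, E2F5, TFDP1 and TFDP2 the interval included 1. With 1 library per condition these values compare 4 libraries, and whether they exceed the spread between cultures was not tested. The DMSO library at 48 h held the lowest level of each gene with a value above 1 and the highest level of each gene with a value below 1.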

How the results depend on the processing

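The depth gave every member at least 70 reads. Limits are the single library per condition, the overlap of E2F5 with another gene, and the low levels of E2F2, E2F7 and E2F8. Of 250 log2 changes of members under the alternatives that can move the value, 240 stayed on their side of the 2-fold threshold and the others were called in addition. Among the 250, 22 changed sign without being called, all of them with a main value of at most 0.35 in size, most of them on TPM or with the DMSO library of 24 h. At a minimum FPKM of 5, E2F2, E2F5, E2F7 and E2F8 were not tested. The count of members called at 48 h was 1, and was 4 with a pseudocount of 0.1, 3 on TPM, 3 on TPM centred on the median and 4 at 1.5-fold. The called members were all higher, and of all genes tested 5.48%, 5.95% and 6.62% were called higher under the first of these alternatives, on TPM and on centred TPM. On FPKM, E2F7 and E2F8 could be called only as higher at 48 h and only as lower over time in DMSO. At 24 h the count was 0, and 1 at 1.5-fold. From 24 h to 48 h in DMSO it was 0, and was 2 with a pseudocount of 0.1, 3 at 1.5-fold and 1 on TPM centred on the median, all lower, where 7.9% (pseudocount) and 7.95% (centred TPM) of all genes were lower.

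The activator minus repressor difference at 24 h, 0.19, was 0.40 with E2F4, E2F5 and E2F6 as repressors and -0.13 with E2F7 and E2F8. Leaving out each E2F in turn gave -0.0005 (without E2F1) to 0.39 (without E2F3), and 0.07 without E2F5. At 48 h, where it was 0.85, it was 1.28 and 0.21 with these repressors, 0.29 with the DMSO library of 24 h, and 0.34 (without E2F1) to 1.32 (without E2F3) with each left out. Over time in DMSO, where it was -0.56, it was -1.06 with class medians, -0.89 and -0.077 with these repressors, and -0.77 to -0.45 with each left out. Over time in melatonin, where it was 0.10, it was -0.068 with class medians, -0.0001 and 0.26 with these repressors, and -0.11 (without E2F1) to 0.26 (without E2F2) with each left out.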
